A study of Homo sapiens with 6 samples.

Results

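The interleukin-1 family and a set of related inflammatory cytokines and receptors were examined in MCF10A mammary epithelial cells grown with growth factors or depleted of them. The set was a fixed list of 10 genes, namely IL1A, IL1B, IL1RN, IL1R1, IL18, IL6, CXCL8, CXCL1, IL20RB and LIF, matched by symbol among the 19198 genes of the deposited table. A row was found for 9 of the 10, and all of these 9 passed the minimum mean of 10 normalized counts over the 6 samples. IL6 did so only through the depleted samples, with a mean of 1.44 in the controls and 30.6 in depleted cells. IL1B was not analysed here.

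IL-1α and IL-1β, the products of IL1A and IL1B, signal through the receptor IL1R1 and its accessory chain, which recruit the adaptor MYD88 and IRAK kinases and activate NF-κB. IL1RN encodes the receptor antagonist, which occupies IL1R1 without signalling, and IL-18 is a further family member that caspase-1 cuts to its active form. CXCL8 and CXCL1 are neutrophil-attracting chemokines and classical NF-κB targets, IL-6 and LIF signal through the shared receptor chain gp130 to STAT3, and IL20RB is a receptor subunit for cytokines of the IL-20 group. Epithelial cells both make and sense several of these factors, and IL-1α and the antagonist are typical products of stratified epithelia.

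MCF10A is an established, non-tumorigenic line derived from a breast with fibrocystic disease. All 6 samples were grown in DMEM:F12 with 5% horse serum. The 3 control samples also received hydrocortisone (0.5 μg/ml), EGF (20 ng/ml), insulin (10 μg/ml) and cholera toxin (100 ng/ml), and the 3 growth factor-depleted samples received none of these. The 4 agents were removed together, so their parts cannot be told apart, and the labels give no day of harvest and do not say whether replicates came from separate cultures. All p-values therefore measure only the spread between these samples, which may be technical. Hydrocortisone is itself an anti-inflammatory steroid, and cholera toxin raises cyclic AMP.

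Total RNA depleted of ribosomal RNA was sequenced to between 7472418 reads on genes, in depleted replicate 3, and 28672630, in control replicate 2. A count of 3 reads, taken as the floor, was worth 1.76 to 6.71 normalized counts, and covers counting error only. Normalized counts are reads divided by a size factor for each sample, without division by gene length. The labels call the cells luminal ductal. Of 10 mammary epithelial markers all had a row, with summed levels of 38711 to 85826 normalized counts in the controls and 37998 to 183224 in depleted cells, a median log2 change of -1.33, and 2 called lower in depleted cells, TP63 and KRT19. The luminal keratin KRT8 was high, at 6549 ± 3557 in the controls and 12996 ± 5849 in depleted cells (SD, n = 3 in each condition), as was the basal keratin KRT17. ESR1, which encodes the oestrogen receptor, was low, at 150 ± 75.7 and 20.7 ± 14.5. Depleted replicate 1 stood apart from the other depleted samples, with 609.6 normalized counts of CDH1, which encodes E-cadherin, against 13234 and 13118. Control replicate 3 also stood apart from the other controls. The chi-square per degree of freedom between its gene counts and those of control replicates 1 and 2 was 205 and 332. Between control replicates 1 and 2 it was 111, and between control replicate 1 and the depleted samples 191 to 264. This measure grows with read depth, so pairs of unlike depth are not comparable. Without control replicate 3, 2474 genes were called, against 1076 with it. Of 11 leukocyte markers 4 had a row, PTPRC, CD14, LYZ and CSF1R, and their summed level was between 437 and 1078 normalized counts across the controls and between 420 and 677 in depleted cells. PTPRC, which encodes the pan-leukocyte antigen CD45, had 0 to 2.0 normalized counts across the controls and 10.1 to 13.8 in depleted cells. The 3 leukocyte markers tested had a median log2 change of -1.09 and 0 were called. Among them CD14 had 528 ± 317 in the controls and 269 ± 326 in depleted cells (SD, n = 3 in each condition). CSF1R was mixed, with 169, 148 and 152 normalized counts in control replicates 1, 2 and 3 and 11.9, 434 and 318 in the depleted ones. Its log2 change was -0.37 with all samples and 1.24 without depleted replicate 1. Of 5 endothelial markers 4 had a row, with summed levels of 167 to 1787 in the controls and 265 to 1610 in depleted cells. CDH5, which encodes VE-cadherin, was called higher, at 5.93 ± 2.49 and 81.6 ± 49.3 (SD, n = 3 in each condition). Only its depleted samples brought it over the minimum mean. Of the 3 endothelial markers tested it was the only one called, 1 other was lower in every depleted sample, and the median log2 change was 0.09. Over all genes tested 6.33% were called. The part of these markers in the results was not tested.

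The bases just upstream of the start sites of IL6, CXCL8, CXCL1 and IL1RN are shown because this group holds genes that rose, fell or did not pass the test while all carry a κB-like motif. RefSeq windows (GRCh38.p14) were found for 7 of the 9 genes with a row, and not for IL18 and LIF. Each sequence below gives the 250 bases before the start site, 5′ to 3′ on the plus strand, with matches to the κB motif (GGNNTTTCC) or the AP-1 motif (TGANTCA) in capitals. The regions are chr7:22726950-22727199 for IL6, chr4:73740319-73740568 for CXCL8, chr4:73869143-73869392 for CXCL1 and chr2:113127348-113127597 for the most downstream of 3 IL1RN start sites.
IL6: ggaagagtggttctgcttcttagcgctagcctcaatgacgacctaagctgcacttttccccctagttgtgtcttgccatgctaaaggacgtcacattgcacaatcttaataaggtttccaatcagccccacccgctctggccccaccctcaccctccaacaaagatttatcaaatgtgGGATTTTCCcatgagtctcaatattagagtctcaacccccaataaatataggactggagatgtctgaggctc
CXCL8: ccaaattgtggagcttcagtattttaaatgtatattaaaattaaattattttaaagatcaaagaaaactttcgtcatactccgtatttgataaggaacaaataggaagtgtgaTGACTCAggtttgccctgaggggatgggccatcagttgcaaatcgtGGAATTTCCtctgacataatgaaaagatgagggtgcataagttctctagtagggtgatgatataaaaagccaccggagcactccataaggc
CXCL1: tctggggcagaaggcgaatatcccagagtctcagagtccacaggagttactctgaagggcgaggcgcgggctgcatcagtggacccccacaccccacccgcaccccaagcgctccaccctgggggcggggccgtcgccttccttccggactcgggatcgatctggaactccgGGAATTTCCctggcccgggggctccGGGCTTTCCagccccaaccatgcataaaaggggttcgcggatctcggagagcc
IL1RN: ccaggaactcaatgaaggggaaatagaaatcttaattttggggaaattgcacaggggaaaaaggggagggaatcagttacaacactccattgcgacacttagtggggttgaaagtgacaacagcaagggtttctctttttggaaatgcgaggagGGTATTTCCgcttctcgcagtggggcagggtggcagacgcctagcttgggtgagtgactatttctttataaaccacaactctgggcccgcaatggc
Both strands were searched. The κB letters occurred in 5.48% of all 35116 windows of this length and in 4 of the 13 windows of the analysed genes, one each for these 4 genes, with CXCL1 holding 2 copies that do not overlap. In CXCL8 the κB letters lay 91 to 83 bases before the start site, and an AP-1 match lay 137 to 131 bases before it. AP-1 letters were found in 4 of the 13 windows, those of IL1A, IL1RN (at another start site) and CXCL8, against 6.57% of all windows. A half-site of the cyclic AMP response element (TGACG) was present in 4 of the 13, those of IL1A, IL6 and CXCL8, against 21.2% of all windows. The windows of IL1A overlap each other and share an AP-1 match and the half-site, so these are counted in both. The most downstream IL1RN window also overlaps the one before it, which holds no match. No match overlapped a match of another motif. The letters of these 3 motifs are not in the windows of IL1R1 and IL20RB. These matches describe letters in a window and are not binding data.

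In growth factor-depleted cells IL6 rose, IL1RN and IL20RB fell, and the other 6 genes tested did not pass. In bulk RNA, fewer cells expressing a gene and less of its RNA per cell cannot be told apart. Here and below a gene passed, rose or fell by limma, at a Benjamini-Hochberg adjusted p under 0.05 over all 16988 genes tested and a change of at least 2-fold. The 3 called genes of 9 stand beside 6.33% of all genes called, and beside 4.36% called higher and 1.97% called lower in depleted cells. All depleted samples exceeded all controls for IL6 and LIF, and lay below them for IL1RN, IL18 and IL20RB, so that 5 of the 9 genes had groups that did not overlap, against 25.6% of all genes tested. By edgeR on the recovered reads 2 of the 9 were called, beside 5.72% of all genes, and by DESeq2 5 of the 9, beside 12.4%. The median log2 change of the 9 genes was -0.69, beside -0.03 over all genes. The plot of normalized counts by sample shows each of these values.

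**Figure D1:**
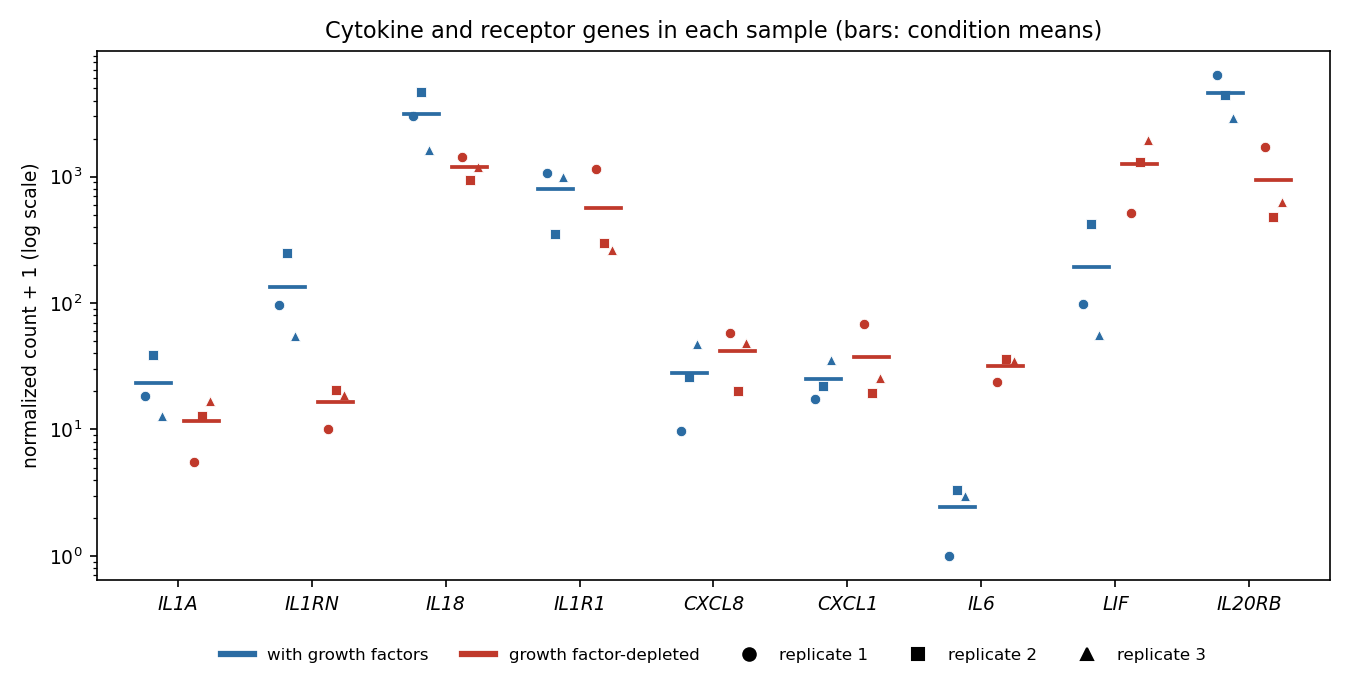
Normalized counts plus 1, on a log axis, of the 9 cytokine and receptor genes in each sample, with control samples in blue, depleted samples in red, symbols for replicate numbers and bars for condition means. IL6 and LIF sit higher in every depleted sample, IL1RN, IL18 and IL20RB lower, and the groups overlap for IL1A, IL1R1, CXCL8 and CXCL1.

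Of 11 ligands and antagonists of the IL-1 family only IL1RN, IL1A and IL18 could be tested, and IL1RN fell. IL1RN, the antagonist, lies on chromosome 2 of hg38 from 113099315 to 113134016. In replicates 1, 2 and 3, an order kept throughout, the controls had 95.2, 248 and 54.1 normalized counts of it and the depleted cells 9.2, 19.7 and 17.9. The lowest control was well above the highest depleted sample, although the controls themselves spread widely. The mean fell from 132 ± 102 to 15.6 ± 5.63 normalized counts (SD, n = 3 in each condition), giving a log2 fold change, depleted over control, of -2.79 (standard error, SE, 0.65, adjusted p = 0.0426 by limma). In recovered reads this is 554 over the controls and 48 over the depleted samples. The direction held with any sample left out, but the call was lost in 5 of the 6 such fits, with an adjusted p of 0.119 without control replicate 1, 0.126 without control replicate 2, and 0.104, 0.109 and 0.121 without depleted replicates 1, 2 and 3.

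IL1A, the agonist analysed here, is encoded on the same chromosome from 112773925 to 112784493. It was low throughout, with 17.5, 37.5 and 11.8 normalized counts across the controls and 4.6, 11.8 and 15.7 in depleted cells. The groups overlapped, and the log2 change of -0.98 had a 95% interval from -2.59 to 0.63 (adjusted p = 0.509 by limma), at 5 to 64 reads per sample. The balance of antagonist to agonist was followed as the log2 ratio of IL1RN to IL1A within each sample, with 1 added to both. Counts were not divided by gene length here, so the ratio compares conditions, and its level does not say which RNA was more abundant. It was 2.38, 2.69 and 2.11 in the controls and 0.86, 0.69 and 0.18 in depleted cells. Every depleted ratio was below every control ratio, and the mean went from 2.39 ± 0.29 to 0.58 ± 0.36 (SD, n = 3 in each condition), a difference of -1.81 on the log2 scale. The exact two-sided permutation test gave p = 0.1, the smallest that 3 samples against 3 allow.

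IL18, on chromosome 11 from 112143253 to 112164096, was among the most abundant genes of the group. It had 3014, 4682 and 1626 normalized counts across the controls and 1436, 940.2 and 1194 in depleted cells. No depleted sample reached the lowest control, but the gap between control replicate 3 and depleted replicate 1 was small. The log2 change was -1.28 (SE 0.41, 95% interval -2.20 to -0.35), and IL18 did not pass (adjusted p = 0.114 by limma). Without control replicate 3 it passed, with a log2 change of -1.68 and an adjusted p of 0.0153, as it did by DESeq2 on the recovered reads (adjusted p = 0.0218).

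Of the receptors of this family, IL1R1 did not pass and IL1RL2 fell. In this list of 6 tested genes 16.7% were called, beside 6.33% of all genes. IL1R1, on chromosome 2 from 102064544 to 102179874, encodes the signalling receptor of IL-1. It had 1073, 349.8 and 991.6 normalized counts across the controls and 1140, 295.7 and 263.8 in depleted cells. Control replicate 2 came near depleted replicates 2 and 3, and depleted replicate 1 was the highest of all 6. Its log2 change was -0.69 (95% interval -2.15 to 0.77, adjusted p = 0.626 by limma), and -1.36 without depleted replicate 1 (adjusted p = 0.217). IL1RL2 encodes the receptor of the IL-36 cytokines, and had 66.4, 77.3 and 80.7 normalized counts across the controls against 14.6, 11.1 and 6.7 in depleted cells. This was a log2 change of -2.73 (SE 0.51, adjusted p = 0.018 by limma), with the call kept in 2 of the 6 fits with 1 sample omitted, those without control replicate 3 or depleted replicate 1. The other 4 receptors or binding proteins tested did not pass, and IL18R1 and SIGIRR had the largest changes among them, with log2 changes of -0.80 and 0.44. The accessory chain IL1RAP had 642 ± 191 normalized counts when growth factors were given and 744 ± 181 without (SD, n = 3 in each condition).

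**Figure D2:**
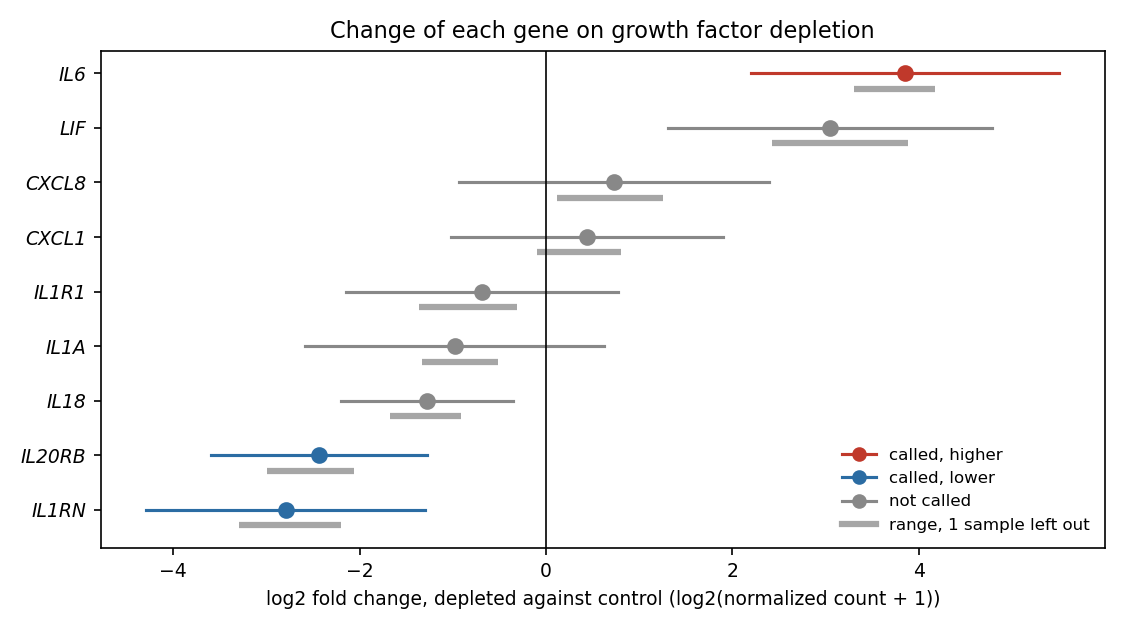
Log2 change of the 9 genes, depleted against control, on the log2(normalized count + 1) scale, with points for the limma estimate, thin lines for its 95% interval and thick grey bars for the range when 1 sample was left out. IL6 stands at 3.85 and LIF at 3.04, IL20RB at -2.44 and IL1RN at -2.79, and the intervals of CXCL8, CXCL1, IL1R1 and IL1A cross 0.

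Downstream of the receptor, 3 of the 12 adaptors and kinases tested had an unadjusted p under 0.05 by limma, beside 3400 of all 16988 genes. None of the 12 passed by limma, and their median log2 change was 0.15. By edgeR 0 were called and by DESeq2 2, IRAK2 (adjusted p = 0.00151) and MAP3K8 (adjusted p = 0.0481). IRAK2, a kinase that sustains IL-1 signalling, had the largest difference, with 6.3, 51.0 and 31.5 normalized counts across the controls and 823.8, 72.8 and 127.4 in depleted cells. Depleted replicate 1 alone held most of this difference. The log2 change was 3.11 (SE 1.01, adjusted p = 0.122 by limma), and 2.08 without depleted replicate 1. MAP3K8, a kinase that couples inflammatory receptors to ERK, had a log2 change of 1.17 (adjusted p = 0.175 by limma). MYD88 itself had 323 ± 111 normalized counts across the controls and 730 ± 267 in depleted cells (SD, n = 3 in each condition), and did not pass (adjusted p = 0.16 by limma).

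In the NF-κB list 1 of 17 genes tested fell and none rose, with a median log2 change of 0.02. That is 5.88% called, just under the 6.33% of all genes. BIRC3, an inhibitor of apoptosis that acts in TNF receptor complexes and is an NF-κB target, had 3589, 1892 and 895.2 normalized counts across the controls and 489.7, 374.4 and 498.6 in depleted cells. The depleted samples lay close together, below a wide spread of controls (log2 change -2.02, SE 0.47, adjusted p = 0.0433 by limma). BIRC3 kept its call only without control replicate 3, of the 6 fits with 1 sample omitted, and lost it with limma without the trend (adjusted p = 0.0832). RELB, a subunit of the alternative NF-κB pathway, had a log2 change of 1.58 (adjusted p = 0.17 by limma), and TNFAIP3, which encodes the feedback inhibitor A20, of 1.52 (adjusted p = 0.388 by limma). Both passed without control replicate 3 (adjusted p = 0.023 and 0.0215). The main subunits NFKB1 and RELA had log2 changes of 0.04 and 0.28. NFKBIA and NFKBIE, which encode inhibitors of NF-κB and are among its targets, had log2 changes of -0.73 and 1.08, and neither passed, although DESeq2 called NFKBIE.

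Of 7 inflammasome and protease genes tested, NLRP3 rose and the others did not pass, that is 14.3% called beside 6.33% of all genes. NLRP3, the sensor of the best studied inflammasome, had no more than 3 reads in any control, that is 2.5, 1.8 and 1.0 normalized counts. In depleted cells it had 21.1, 19.7 and 31.3, with 6 recovered reads over the controls and 67 over the depleted samples (log2 change 3.19, SE 0.64, adjusted p = 0.0225 by limma). NLRP3 passed the minimum mean for testing only through the depleted samples. The size of a change from so few reads depends on the pseudocount, and was 1.52 with a pseudocount of 10. The call was not kept with quantile normalization (adjusted p = 0.0522), and was kept in 1 of the 6 fits with a sample left out, the one without control replicate 3. NLRP1 and GSDMD, a second sensor and the pore-forming gasdermin D, had log2 changes of 2.66 and 0.98 and did not pass, but did without control replicate 3 (adjusted p = 0.0329 and 0.0366). CASP1, which processes IL-18, had 298 ± 69.1 normalized counts across the controls and 172 ± 29.6 in depleted cells (SD, n = 3 in each condition), and did not pass either (adjusted p = 0.247 by limma).

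CXCL8 and CXCL1, the chemokines of the set, were both low and did not pass. CXCL8, at 73740519 to 73743716 of chromosome 4, gave 8.8, 25.2 and 46.2 normalized counts across the controls against 56.7, 19.0 and 47.0 in depleted cells. Control replicate 3 was level with depleted replicate 3, and the log2 change of 0.73 had a 95% interval from -0.93 to 2.40 (adjusted p = 0.651 by limma). CXCL1, from 73869393 to 73871308 on the same chromosome, had 16.3, 21.1 and 34.4 normalized counts across the controls and 66.8, 18.4 and 24.6 in depleted cells. Its log2 change of 0.44 (95% interval -1.02 to 1.90, adjusted p = 0.771 by limma) rested on depleted replicate 1 and was -0.10 without it. CXCL1, CXCL2 and CXCL3 are near-identical copies that read counting may split wrongly, so their separate values are uncertain.

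Of the other chemokines CCL20 fell and the rest did not pass. CXCL2 had 18.8, 107.8 and 97.4 normalized counts across the controls and 11.9, 5.2 and 8.9 in depleted cells, with groups that did not overlap, a log2 difference of -2.68 and an adjusted p by limma of 0.0806. It passed with quantile normalization (adjusted p = 0.0447), by DESeq2 (adjusted p = 0.00162) and without control replicate 1 (adjusted p = 0.0312). CCL20, which attracts cells bearing CCR6, had 50.1, 129.5 and 20.7 normalized counts across the controls and 0, 2.0 and 2.2 in depleted cells. That was 282 recovered reads over the controls and 4 over the depleted samples (log2 change -4.63, SE 0.86, adjusted p = 0.0167 by limma), with the call kept in 3 of the 6 fits with a sample left out. The size of this change too depends on the pseudocount, and was -2.49 with a pseudocount of 10. Only the controls brought this gene over the minimum mean for testing. CCL20 lost its call without control replicate 1, control replicate 2 or depleted replicate 2, where the adjusted p was 0.0667, 0.0629 and 0.0542. CCL28, a mucosal chemokine, and CXCL16, a membrane-bound one, had log2 changes of 0.83 and -0.05. Of 3 chemokine receptors tested 1 had an unadjusted p under 0.05 by limma, beside 3400 of all 16988 genes. None of the 3 passed by limma, with log2 changes of 2.85 for ACKR3 and -0.54 for CXCR4. By edgeR 0 were called and by DESeq2 1, ACKR3 (adjusted p = 0.0264).

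**Figure D3:**
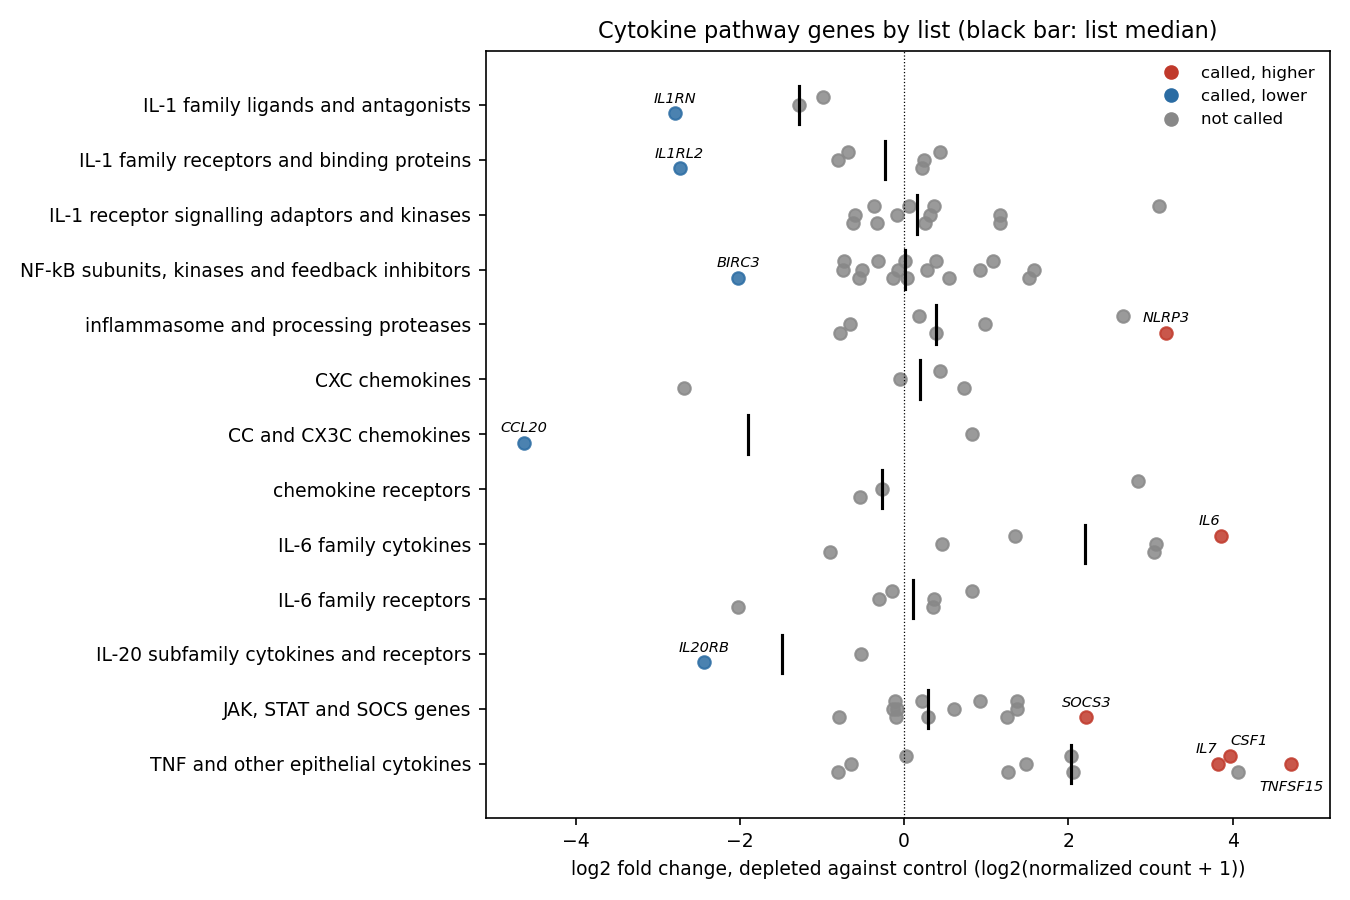
Log2 change, depleted against control on the log2(normalized count + 1) scale, of every gene tested in the 13 cytokine pathway lists, members of the set included, with a black bar at each list's median. Called genes are coloured and named. The IL-6 family cytokines have the highest median, 2.20, which is 0.91 without the set members IL6 and LIF.

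Of the 6 IL-6 family cytokines tested, IL6 rose and none fell, that is 16.7% called beside 6.33% of all genes. IL6, at 22725884 to 22732002 of chromosome 7, gave 0, 2.3 and 2.0 normalized counts across the controls and 22.9, 35.4 and 33.5 in depleted cells. In recovered reads this was 0, 4 and 2 against 25, 54 and 15, so the gene was at the edge of detection with growth factors and low but present in every sample without them. The log2 change was 3.85 (adjusted p = 0.0179 by limma, SE 0.72, 95% interval 2.20 to 5.51). The controls were near the floor, and the change was 1.82 with a pseudocount of 10. It lay between 3.30 and 4.17 with each sample left out at the pseudocount of 1, and the call was lost without depleted replicate 2 (adjusted p = 0.1) or depleted replicate 3 (adjusted p = 0.0927). The antisense gene IL6-AS1 shares 428 exonic bases with IL6, and had at most 1.0 normalized count in the controls and 8.2, 9.2 and 6.7 in depleted cells. The kit was stranded, but the sources used here do not state whether counting used the strand, so reads of the pair cannot be told apart with certainty.

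LIF, on chromosome 22 from 30240453 to 30246759, was more abundant than IL6. It had 96.5, 421.8 and 55.1 normalized counts across the controls and 518, 1294 and 1932 in depleted cells. Control replicate 2 came close to depleted replicate 1, and the other samples were far apart. The mean was 191 ± 201 in the controls and 1248 ± 708 in depleted cells (SD, n = 3 per condition), that is, a log2 change of 3.04 (SE 0.76, 95% interval 1.31 to 4.78). The antisense gene LIF-AS2 shares 83 exonic bases with LIF. It had 1.3, 5.9 and 0 normalized counts across the controls and 9.2, 15.1 and 35.8 in depleted cells. LIF missed the threshold (adjusted p = 0.0527 by limma). It passed without control replicate 2 (adjusted p = 0.0142), without depleted replicate 1 (adjusted p = 0.0434), with no filter on low values (adjusted p = 0.0469), after rescaling to the same total (adjusted p = 0.0466) and by DESeq2 (adjusted p = 0.00272), and not by edgeR (adjusted p = 0.086).

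IL11, which signals through gp130 as IL-6 does, had 8.8, 29.9 and 125.9 normalized counts across the controls and 30.2, 805.8 and 903.3 in depleted cells. Depleted replicate 1 lay within the controls, and the log2 change of 3.07 (SE 1.37, adjusted p = 0.258 by limma) became 4.66 without it (adjusted p = 0.0343). DESeq2 called IL11 as well (adjusted p = 0.00962). Like LIF, the other 4 cytokines of the family did not pass by limma with all samples. CTF1, which encodes cardiotrophin, had a log2 change of 1.35 (adjusted p = 0.258 by limma).

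Of the 6 receptor genes tested for these cytokines 1 had an unadjusted p under 0.05 by limma, beside 3400 of all 16988 genes. None of the 6 passed by limma, and edgeR and DESeq2 called 0 of them. IL6R, the specific IL-6 receptor chain, had 119, 100 and 184 normalized counts across the controls and 19.2, 78.0 and 20.1 in depleted cells, with no overlap (log2 change -2.02, SE 0.62, adjusted p = 0.102 by limma). IL27RA had a log2 change of 0.82. The shared chain gp130, from IL6ST, had a log2 change of 0.37 (adjusted p = 0.621 by limma). Among 13 JAK, STAT and SOCS genes SOCS3 rose and the others did not pass, that is 7.69% called beside 6.33% of all genes. SOCS3, the feedback inhibitor of gp130 signalling and a STAT3 target, had 40.1, 51.6 and 108.2 normalized counts across the controls and 272.8, 291.1 and 297.4 in depleted cells. The depleted samples were nearly level, at a log2 change of 2.22 (SE 0.44, adjusted p = 0.0227 by limma). The call was kept under all 10 alternatives that used every sample, and in 1 of the 6 fits with a sample left out, the one without control replicate 3. STAT3 was at a log2 change of -0.09, and SOCS2 and SOCS1, with 1.38 each, did not pass.

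IL20RB, on chromosome 3 from 136946230 to 137011085, fell. It encodes the shared beta chain of the receptors for IL-19, IL-20 and IL-24, and had 6390, 4427 and 2916 normalized counts across the controls against 1724, 478.6 and 626.1 in depleted cells. The highest depleted sample, replicate 1, stayed below the lowest control. The mean went from 4578 ± 1742 to 943 ± 681 normalized counts (SD, n = 3 for both), or a log2 change of -2.44 (SE 0.51, adjusted p = 0.0263 by limma), and of -2.99 without depleted replicate 1 (adjusted p = 0.00716). The call was lost without control replicate 1 (adjusted p = 0.103), control replicate 2 (0.078), depleted replicate 2 (0.105) or depleted replicate 3 (0.109), with limma without the trend (0.057) and by edgeR on the recovered reads (0.05001, just over the threshold). NCK1, a neighbour on the same strand, shares 66 exonic bases with IL20RB in Gencode v44. It too was lower in every depleted sample, with 1415, 969 and 974 normalized counts across the controls and 483, 633 and 505 in depleted cells. Its part in the IL20RB values was not tested. IL10RB, a receptor chain of the same class, had a log2 change of -0.53 (adjusted p = 0.568 by limma).

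Among 11 TNF family and other epithelial cytokines tested, TNFSF15, CSF1 and IL7 rose and none fell, with a median log2 change of 2.03. That is 27.3% called, beside 4.36% of all genes called higher and 1.97% called lower. The list was chosen with earlier results of these data known. TNFSF15, a TNF superfamily ligand of DR3, had 26.3, 35.2 and 53.1 normalized counts across the controls and 514.4, 1273 and 1478 in depleted cells (log2 change 4.72, SE 0.49, adjusted p = 0.00157 by limma). It was called in all 6 fits with 1 sample omitted. CSF1, the macrophage growth factor, had 11.3, 22.8 and 99.4 normalized counts across the controls and 992.2, 236.0 and 480.7 in depleted cells (log2 change 3.97, adjusted p = 0.0248 by limma). Its call was kept without control replicate 3 or depleted replicate 2, and lost in the other 4 fits. IL7, a lymphocyte growth factor, had 2.0 to 2.5 normalized counts across the controls and 80.5, 36.1 and 31.3 in depleted cells (log2 change 3.82, adjusted p = 0.00961 by limma), and lost its call without depleted replicate 2 (adjusted p = 0.0536). With a pseudocount of 10 the change of IL7 was 2.18, and only its depleted samples brought it over the minimum mean for testing. IL32 and IL16 had log2 changes of 4.07 and 2.06 and did not pass, and depleted replicate 1, with 11.9 normalized counts of IL32, lay far below the 329.8 and 375.6 of the other depleted samples. Without that replicate IL32 passed, with a log2 change of 5.66 (adjusted p = 0.0269), as it did by DESeq2 (adjusted p = 0.00229). IL16 passed without control replicate 3 (adjusted p = 0.0476).

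**Figure D4:**
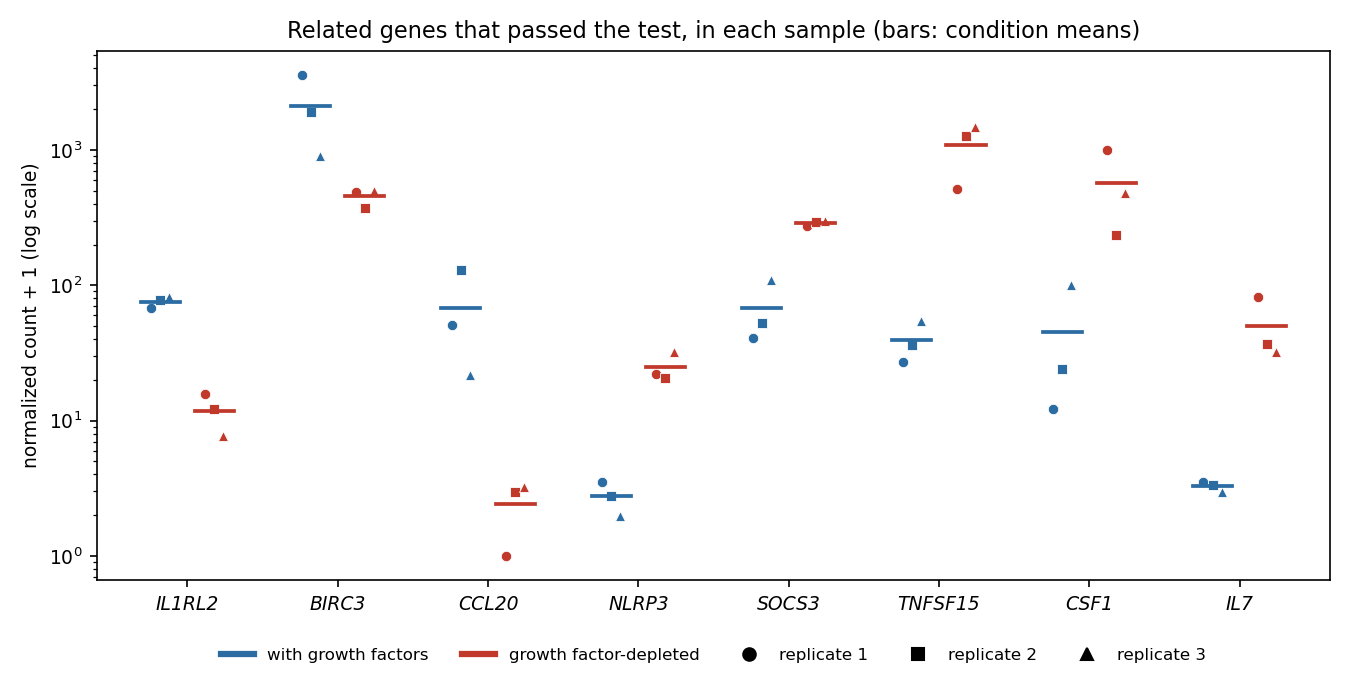
Normalized counts plus 1, on a log axis, of the 8 related genes that passed the test, in each sample, with control samples in blue, depleted samples in red and bars for condition means. IL1RL2, BIRC3 and CCL20 sit lower in every depleted sample and NLRP3, SOCS3, TNFSF15, CSF1 and IL7 higher.

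Over the 13 lists, which hold 151 genes beside the 10 of the set, 83 were tested, and 5 rose and 3 fell. This is 9.64% of those tested, beside 6.33% of all genes, and the median log2 change was 0.24. The lists too were chosen with earlier results of these data known, so this is not an independent comparison. With 1 sample left out, the number of these genes called was 14 without control replicate 3 and 7 without depleted replicate 1. It was 2 without control replicate 2 or depleted replicate 2, and 3 without control replicate 1 or depleted replicate 3.

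To order the levels of the 9 genes, normalized counts were divided by the length of all exons of the gene in kilobases. Lengths came from Gencode v44, whereas reads were counted on Gencode v22. They hold the exons of every annotated transcript, expressed or not, so the order is approximate. With growth factors IL20RB was the highest, at 1874 ± 713 normalized counts per kb (SD, n = 3), followed by IL18, at 1193 ± 587, and the ranges of these 2 overlapped. A clear gap followed, with IL1R1 at 113 ± 55.6, LIF at 49.4 ± 51.9 and IL1RN at 35.5 ± 27.3 per kb. CXCL1, IL1A and CXCL8 stood between 10.3 and 17.6 per kb, and each overlapped the next in order. IL6 was the lowest, at 0.33 ± 0.29 per kb, and below every sample of CXCL8. Without growth factors IL18 (457 ± 95.2 per kb), IL20RB (386 ± 279) and LIF (322 ± 183) led the order, and their ranges overlapped. IL1RN moved from the fifth place to the last, at 4.17 ± 1.51 per kb, beside IL1A at 5.29 ± 2.79 and IL6 at 7.08 ± 1.56. Each gene in the depleted order overlapped its neighbour.

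**Figure D5:**
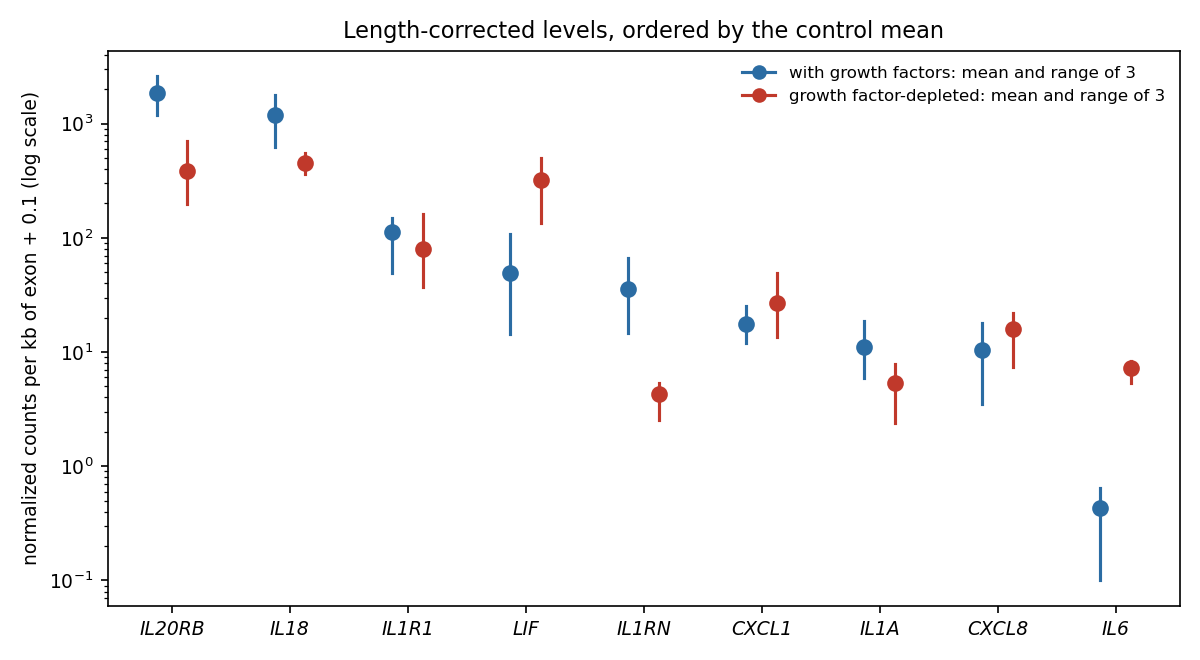
Normalized counts per kilobase of exon plus 0.1, on a log axis, of the 9 genes ordered by their control mean, with points for the mean and lines for the range of the 3 samples of each condition. IL20RB and IL18 lead with growth factors at 1874 and 1193 per kb, LIF joins them without, and IL1RN drops to the last place at 4.17.

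Among the 11688 genes averaging at least 100 normalized counts, the log2 profiles over the 6 samples most like that of IL1RN were those of AGK (Pearson's r = 0.998), UBE3C (0.989) and SPTSSB (0.987). The correlation ignores the size of the change. AGK, a mitochondrial lipid kinase, had between 514 and 897 normalized counts across the controls and between 283 and 346 in depleted cells, a far smaller step than that of IL1RN. SPTSSB, a small subunit of serine palmitoyltransferase, had 302 to 898 and 33.0 to 95.7, a log2 change of -2.95. These are descriptions over 6 samples that share the difference between conditions.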

How the data were processed

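MCF10A RNA was profiled in 6 samples, 3 control and 3 growth factor-depleted, grouped by the sample labels, although the series' own design line speaks of 2 replicates. The authors depleted ribosomal RNA, made stranded libraries and sequenced single-end reads of 100 bases. Adapter trimming with cutadapt 1.6, mapping to hg38 with TopHat2, counting with HTSeq 0.6 on Gencode v22 and scaling with DESeq2 1.8.1 followed, per the submitters' notes and the methods. The deposited signal is a normalized count, that is reads over a size factor, and 100% of values were whole multiples (within 0.001) of the sample's smallest value above 0, so reads were recovered.

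The 10 genes and the related lists were chosen with earlier results of these data known. Values were tested with limma 3.58.1 in R 4.3.3 (eBayes with trend) on log2(normalized count + 1), which understates changes of low genes, for the 16988 genes averaging 10 or more. Alternatives were pseudocounts of 0.5 and 10, no filter, a mean of at least 50, equal totals, quantile normalization, no trend, the replicate number as a block, edgeR 4.0.16 and DESeq2 1.42.0 on recovered reads, and leaving out each sample. The fitting steps were tested on simulated data. The ratio of IL1RN to IL1B was planned and not run, since IL1B was not analysed here, and likeness was described for IL1RN only. Symbols and coordinates came from Gencode v44, which names 18913 of the 19198 identifiers. Start-site windows came from RefSeq. Genes of the lists are named when called, or when among the 2 largest changes not called in a list. IL1RAP, MYD88, NFKB1, RELA, NFKBIA, NFKBIE, CASP1, IL6ST and STAT3 were named for their roles after their values were seen. Genes of the lists without a row were not analysed here. A planned result is not reported here.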

Additional observations from a re-analysis of the deposited data

How the results depend on the processing

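The number of genes called among the 9 tested, 3 in the report, was 1 with a minimum mean of 50, where IL6 was not tested and IL1RN had an adjusted p of 0.0602, and 5 by DESeq2. It was 0 to 4 with a sample left out, and 0 without depleted replicate 2 or depleted replicate 3. The number called among the related genes, 8, was 4 with a minimum mean of 50, 17 by DESeq2 and 2 to 14 with a sample left out. Over all genes, 1076 were called, 2112 by DESeq2 and 453 to 2474 with a sample left out, the fewest without depleted replicate 2 and the most without control replicate 3. With a sample left out, the direction turned for 1 of the 6 uncalled genes of the set and for 20 of the 75 uncalled related genes. Of the genes named by rule, CXCL1 ranged from -0.10 to 0.81 on the log2 scale with a sample left out, CXCL16 from -0.64 to 0.73, and CXCR4 from -1.92 to 0.54, and CXCL16 was 0.37 by edgeR and 0.34 by DESeq2. The cause was not tested. The log2 ratio of IL1RN to IL1A differed by -1.95 to -1.61 with a sample left out.

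Replicate numbers are shared by the conditions, but same-numbered samples did not deviate together (correlations across genes of -0.07, -0.28 and -0.32), so the numbers were not taken to pair the samples, and no sample correlated best with its own number. In a fit blocked on that number, the replicate block called 967 genes, among them 4 of the 9 and 8 of the related genes, LIF (adjusted p = 0.0144), IL11 (0.0211) and IL32 (0.0167) passed, and IL1RL2 (0.0519) and NLRP3 (0.0699) did not. The paired exact test of the ratio gave p = 0.25, the smallest that 3 pairs allow.

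With 3 samples a condition, and one library of 7472418 reads, a change of a gene with few reads, such as IL1A, CXCL8 or CXCL1, was measured with wide intervals. The ratio of IL1RN to IL1B was not run.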
